A study of Mus musculus with 18 samples.

Results

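Naive CD4 T cells of the spleen were compared with those of the axillary lymph nodes, in the fraction with low expression of a reporter of T cell receptor (TCR) signal, by ATAC-seq. In ATAC-seq the transposase Tn5 cuts open chromatin and leaves sequencing adapters there, so that peaks of reads mark accessible DNA. The comparison rests on 6 of the 18 libraries of the series, 3 biological replicates of spleen low cells and 3 of axillary low cells, chosen by organ and reporter level from the sample titles. All cells were freshly prepared from untreated C57BL6/J mice with the genotype given as WT. They were sorted by Nr4a1-dsGFP, a destabilised green fluorescent protein that reports on Nr4a1, and the low fraction is labelled as low in tonic TCR stimulation (TTS). The construct of the reporter, the age of the mice and any pooling of animals were not stated in the labels used. Replicates may thus share animals, and p-values cover the spread among these libraries alone, part of which may be technical. The other 12 libraries, spleen and axillary high cells and mesenteric low and high cells, serve below only to describe the same regions elsewhere.

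Naive CD4 T cells circulate between blood, spleen and lymph nodes. They enter lymph nodes through high endothelial venules with the help of L-selectin and CCR7, whereas the spleen is open to blood and needs no such entry. In each organ they receive weak, continual TCR signals from self-peptide on MHC molecules, and Nr4a1, an orphan nuclear receptor encoded by an immediate early gene, is induced in proportion to them. Resting T cells hold much of their open chromatin at promoters that all cells use and at lineage enhancers bound by ETS, RUNX and TCF factors.

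Few regions separated the organs, and those that did were mostly weak peaks. Of 23214 regions with a peak in at least 1 of the 6 libraries, 9921 had one in all 6, and 289 (1.24%) had a peak in 3 of 3 spleen and 0 of 3 axillary libraries. The reverse held for 46 regions (0.198%). With the 6 lists cut to one length, 134 of 21043 regions (0.637%) were found in spleen only and 116 (0.551%) in axillary nodes only. Regions at Ctnnb1, Cd69, Ccnd3, Cdk6, Itpkb and Cr2 were in the first group, and regions at Foxp1, Sema7a, Myc, Cd6 and Hspa1a in the second. Among regions shared by all 6 libraries no difference in peak height passed the test.

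Promoter sequences of 7 genes are given here because a region over each of them stands among those that differ most between the organs, by presence in 1 organ only (Ctnnb1, Plekho2, Cr2, Rad51b and Znhit2) or by a small unadjusted p of the fold in either direction (Slc25a5 and Gpr18). They are RefSeq windows of 300 bases on GRCm38.p6, from 250 bases before to 50 after the annotated start, written 5′ to 3′ on the strand of the gene. Capitals mark matches, on either strand, to the GC box GGGCGG, the ETS core CCGGAAG, the CCAAT box CCAAT or the RUNX core TGTGGT. Also searched, with no match in these 7 windows, were the CRE TGACGTCA, the AP-1 site TGANTCA and the E box CACGTG. No matches overlapped within these windows. The positions are chr9:120933328-120933627, plus strand, for Ctnnb1, chr9:65580038-65580337, minus strand, for Plekho2, and chr1:195176670-195176969, minus strand, for Cr2. They are chr12:79297101-79297400, plus strand, for Rad51b, and chr19:6060957-6061256, plus strand, for Znhit2. Those of the fold comparison are chrX:36795347-36795646, plus strand, for Slc25a5, and chr14:121915839-121916138, minus strand, for Gpr18.
Ctnnb1: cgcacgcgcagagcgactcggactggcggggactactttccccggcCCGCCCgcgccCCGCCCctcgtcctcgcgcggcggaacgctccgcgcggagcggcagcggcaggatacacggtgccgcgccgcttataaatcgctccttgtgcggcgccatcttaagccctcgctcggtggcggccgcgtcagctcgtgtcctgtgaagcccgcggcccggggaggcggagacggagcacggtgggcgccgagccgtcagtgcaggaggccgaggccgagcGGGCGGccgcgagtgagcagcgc
Plekho2: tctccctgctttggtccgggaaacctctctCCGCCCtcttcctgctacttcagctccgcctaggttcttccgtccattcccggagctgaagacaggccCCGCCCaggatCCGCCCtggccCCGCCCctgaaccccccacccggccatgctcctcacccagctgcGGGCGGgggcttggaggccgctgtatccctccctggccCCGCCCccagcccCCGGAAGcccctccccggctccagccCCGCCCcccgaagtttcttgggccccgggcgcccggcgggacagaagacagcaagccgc
Cr2: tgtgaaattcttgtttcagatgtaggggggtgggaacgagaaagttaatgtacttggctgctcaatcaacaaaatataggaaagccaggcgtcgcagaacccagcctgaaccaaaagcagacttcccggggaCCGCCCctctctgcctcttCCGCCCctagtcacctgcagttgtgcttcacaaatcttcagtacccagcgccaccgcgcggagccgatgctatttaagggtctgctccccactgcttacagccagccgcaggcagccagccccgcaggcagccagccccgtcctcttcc
Rad51b: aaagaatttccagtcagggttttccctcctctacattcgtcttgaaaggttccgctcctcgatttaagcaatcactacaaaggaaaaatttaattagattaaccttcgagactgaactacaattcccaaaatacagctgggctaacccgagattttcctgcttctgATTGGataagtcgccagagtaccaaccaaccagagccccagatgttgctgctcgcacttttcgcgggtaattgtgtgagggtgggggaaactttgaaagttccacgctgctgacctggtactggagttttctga
Znhit2: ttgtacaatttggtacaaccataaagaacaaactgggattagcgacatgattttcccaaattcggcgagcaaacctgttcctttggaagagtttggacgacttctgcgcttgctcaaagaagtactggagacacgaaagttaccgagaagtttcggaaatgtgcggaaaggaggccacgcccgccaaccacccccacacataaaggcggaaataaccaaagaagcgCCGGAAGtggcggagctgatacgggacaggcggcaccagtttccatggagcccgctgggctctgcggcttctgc
Slc25a5: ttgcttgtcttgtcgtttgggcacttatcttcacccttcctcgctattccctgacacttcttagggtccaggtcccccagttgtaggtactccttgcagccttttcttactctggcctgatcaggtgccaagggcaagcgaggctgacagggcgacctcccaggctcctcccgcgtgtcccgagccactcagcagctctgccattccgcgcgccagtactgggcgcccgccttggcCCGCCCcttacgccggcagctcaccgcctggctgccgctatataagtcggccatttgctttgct
Gpr18: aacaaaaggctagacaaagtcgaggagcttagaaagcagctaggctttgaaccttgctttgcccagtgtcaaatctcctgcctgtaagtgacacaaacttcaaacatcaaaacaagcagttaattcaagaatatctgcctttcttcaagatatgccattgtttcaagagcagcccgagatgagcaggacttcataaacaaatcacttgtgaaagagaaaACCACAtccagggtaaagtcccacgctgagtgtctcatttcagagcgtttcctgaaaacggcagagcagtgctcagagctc

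The windows differ in base composition. G and C make up 75% of the Ctnnb1 window and 72.0% of the Plekho2 window, which hold 3 and 7 GC boxes. They make up 57.3% of the Cr2 window, with 2 GC boxes, and 45.3% of the Rad51b window, with a CCAAT box and no GC box. The axillary-only window at Znhit2 has 52.3% and 1 ETS core. A GC box occurred in 35.9% of all 32619 RefSeq windows and in 73.5% of the 5590 windows under regions found in all 6 libraries. It occurred in 32 of 53 windows (60.4%) under spleen-only regions and in 7 of 17 (41.2%) under axillary-only regions at equal list length. The ETS core occurred in 8.92% of all windows, in 22.0% of those under regions of all 6 libraries, in 10 of 53 under spleen-only regions and in 4 of 17 under axillary-only regions. These shares are descriptions of letters in a window, and with 17 windows in the smaller group they carry no test.

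The 6 libraries are not alike in length and depth. The spleen low libraries held 18008, 17564 and 14514 peaks, and the axillary low libraries 15092, 14372 and 14434. The third spleen library thus lay within the axillary range and the other two above it. The same library stood apart in its narrowest peak, which is the fragment length the peak caller estimated. That value was 169, 170 and 233 bp in the spleen libraries and 216, 232 and 219 bp in the axillary libraries. Depth, recovered from the peak values as the genome-wide background, was 14.4, 13.3 and 9.84 reads per 10 kb in spleen and 9.53, 9.24 and 8.48 in axillary nodes. Spleen low replicate 3 therefore was close to the axillary libraries in fragment estimate, depth and list length, while replicates 1 and 2 were not. Fragment estimate moves with the organ in 5 of the 6 libraries. Depth was higher in every spleen library than in every axillary one, by little in replicate 3 (9.84 against 9.53).

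**Figure D1:**
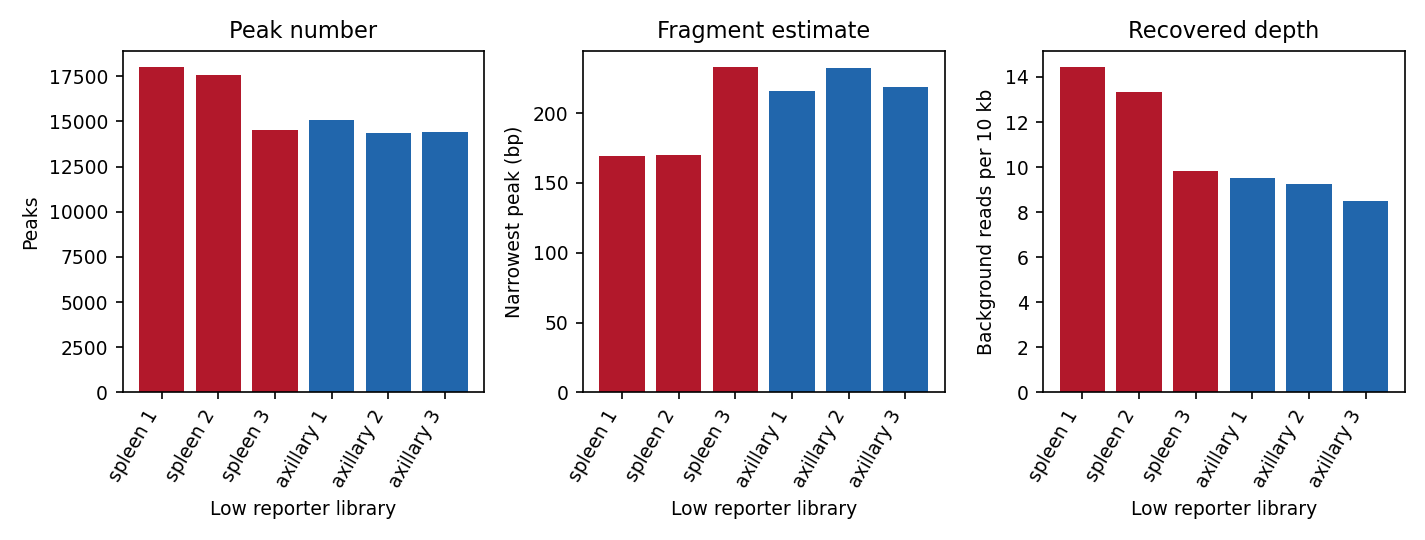
Peaks, narrowest peak in bp (the caller's fragment estimate) and recovered background reads per 10 kb, 1 bar for each low reporter library, red for spleen and blue for axillary nodes. Spleen 3, with 14514 peaks and a narrowest peak of 233 bp, resembles the axillary libraries in all 3 measures.

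Spleen libraries had 16695 ± 1902 peaks and axillary libraries 14633 ± 399 (SD, n = 3 each). The difference did not pass an exact two-sided permutation test (p = 0.2, when 3 against 3 libraries cannot give less than 0.1). After reads were thinned to the depth of the shallowest library, the spleen libraries held 15418, 15636 and 14146 peaks and the axillary ones 14900, 14160 and 14229, a difference of -636.7 (exact permutation p = 0.4). Among the 4 libraries with a long fragment estimate, spleen low 3 had 118.7 peaks fewer than the axillary mean, a value that rests on 1 spleen library and has no test. The number of peaks was thus not separated between organs beyond the spread of the spleen libraries, whose counts overlap the axillary ones.

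With lists of equal length, region sets of 2 libraries of the same organ were slightly more alike than those of different organs. At equal list length the Jaccard index, the share of regions common to 2 libraries, ran from 0.693 to 0.702 in the 6 pairs within an organ and from 0.683 to 0.695 in the 9 pairs between organs. As deposited the ranges were 0.675 to 0.703 and 0.664 to 0.691. There spleen low 3 was closer to the axillary libraries (0.6884, 0.6907 and 0.6905) than to spleen low 1 and 2 (0.6751 and 0.6784). The ranges overlap in both kinds of list, and no pair of replicates stood out as a repeated library.

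Presence by number of libraries shows how the 1-organ regions sit within a broad field of weak regions. As deposited, 3399 regions were found in exactly 1 spleen library and no axillary one, and 1513 in exactly 1 axillary library and no spleen one. Cutting every list to its 14372 strongest peaks left 2158 and 2098 such regions, so the surplus on the spleen side was no longer there. The 3-against-0 classes shrank from 289 to 134 on the spleen side and grew from 46 to 116 on the axillary side. Of the spleen-only regions at equal length 122 (0.526% of the 23214) were also spleen only as deposited, and 37 axillary-only regions (0.159%) met the condition in both lists. With reads thinned to equal depth the counts were 164 (0.746%) and 103 (0.468%). All 3 settings together held 90 spleen-only and 36 axillary-only regions.

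**Figure D2:**
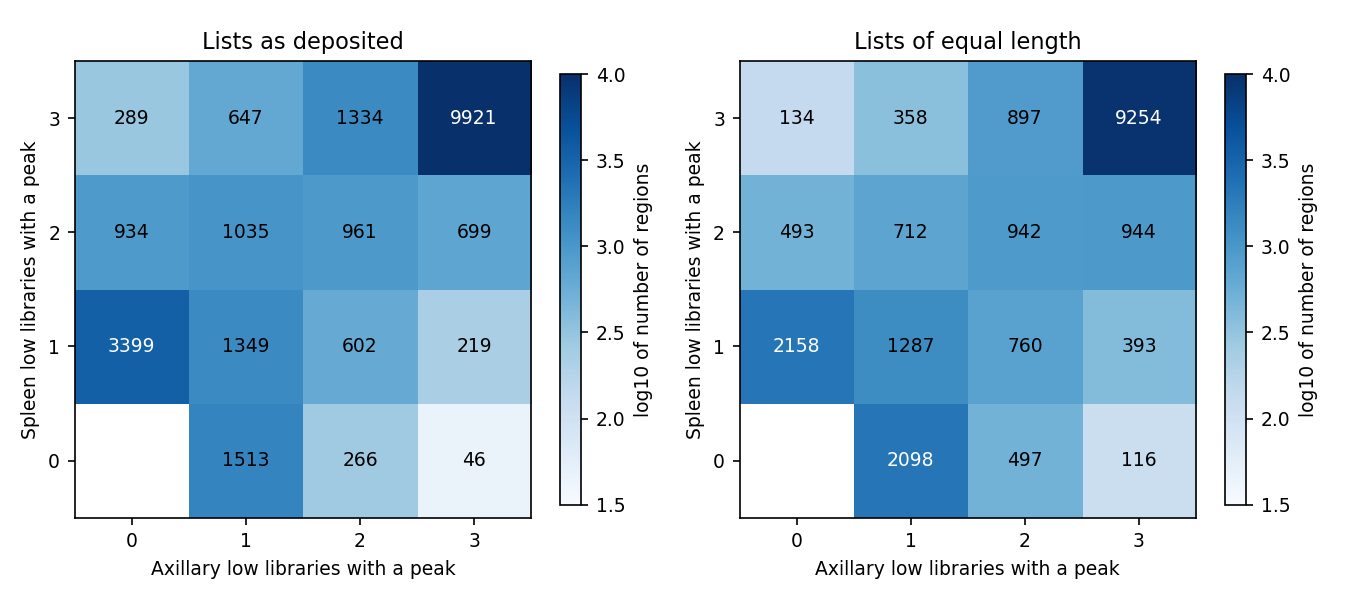
Number of regions by how many of the 3 axillary (x axis) and 3 spleen (y axis) low libraries have a peak, with shading on a log10 scale, for lists as deposited (left) and of equal length (right). The corners for 1 organ only hold 289 and 46 regions as deposited and 134 and 116 at equal length, against 9921 and 9254 in all 6 libraries.

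Leaving out 1 library asks for fewer libraries and so raises these counts by construction. As deposited this gave 458 to 844 spleen-only and 80 to 151 axillary-only regions, with 844 and 80 both without spleen low 3. At equal list length it gave 244 to 312 and 242 to 284. Spleen low 3 alone against the 3 axillary libraries gave 1185 against 682, a rule that asks for 1 spleen library but 3 axillary ones. Both organ-only classes are made of weaker peaks than the shared regions. The median −log10 p, the authors' peak score against local background, was 11.2 in spleen-only, 9.57 in axillary-only and 18.3 in shared regions, and the median fold was 7.11, 6.33 and 9.44. In 47 of the 134 spleen-only regions all 3 spleen peaks reached a −log10 p of 10, and in 9 of the 116 axillary-only regions all 3 axillary peaks did. Weak regions can be missed in a library for lack of reads, so in a deposited list a missing peak means that none was detectable at this depth. At equal length it can also be a called peak that was cut off. Of the 116 axillary-only regions, 52, 55 and 3 had a peak in the deposited lists of spleen low 1, 2 and 3. Of the 134 spleen-only regions, 10, 0 and 2 had one in those of axillary low 1, 2 and 3.

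The organ-only regions differed in where they lie. Within 1000 bp of a gene end were 35.8% of the spleen-only regions and 18.1% of the axillary-only regions, beside 60.3% of the regions in all 6 libraries and 14.2% of those in 1 library. A promoter window lay under 53 spleen-only regions (39.6%) and under 17 axillary-only ones (14.7%). Over whole libraries the direction depended on list length. As deposited, 44.96%, 45.7% and 50.6% of spleen peaks and 47.9%, 49.4% and 49.4% of axillary peaks lay near a gene end (difference 1.84 percentage points, exact permutation p = 0.4). At equal list length 50.1%, 50.5% and 50.8% of spleen peaks and 48.9%, 49.4% and 49.5% of axillary peaks did, groups that do not overlap (difference -1.18 percentage points, exact permutation p = 0.1, the smallest the design allows). In the high reporter libraries the direction turned in the same way, from 45.4% to 46.9% in spleen and 47.2% to 48.8% in axillary nodes as deposited, to 50.1% to 50.9% and 48.5% to 48.9% at equal length.

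The 12 spleen-only regions with the strongest peaks lay at genes of various roles. The strongest by rank lies inside Ccnd3 (chr17:47511093-47511542), which encodes cyclin D3, a driver of lymphocyte division. Its fold enrichment was 7.99, 9.30 and 7.71 in the spleen libraries, with no peak in any axillary low library. In high cells it was present in 3 of 3 spleen and 1 of 3 axillary libraries. A region inside Itpkb (chr1:180387347-180387780), whose kinase limits inositol trisphosphate signals downstream of the TCR, had folds of 8.97, 7.26 and 8.01 in spleen and no axillary low peak. Its axillary high count was 1 of 3, so that the absence was not complete in that organ. A region 23461 bp from the nearest end of Tagap, a GTPase-activating protein expressed in activated T cells, had folds of 11.1, 7.12 and 8.72 in spleen.

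The promoter region of Ctnnb1 (chr9:120933208-120933774), the gene of beta-catenin, a partner of TCF and LEF factors, had folds of 10.1, 8.49 and 7.64 in the spleen low libraries. It had 10.7, 8.99 and 8.94 in the spleen high libraries and no peak in any of the 6 axillary libraries. It covers the whole GC-rich window printed above, and all 6 mesenteric libraries had a peak there. The promoter region of Plekho2 had folds of 7.91, 11.9 and 6.14 in spleen low, with peaks in 2 of 3 axillary high libraries. That of Pdlim7, which encodes a PDZ and LIM domain protein, had 9.64, 8.61 and 10.3 in spleen low, and likewise peaks in 2 of 3 axillary high libraries. The other regions of this rank were inside Arhgap30 and at Adamts3, Zfp217, Zfp975 and Bcorl1. All 12 were spleen only as deposited and at equal length by selection, and at equal depth as well. Only the Ctnnb1 region lacked a peak in all 3 axillary high libraries.

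The Cr2 promoter region (chr1:195176578-195176968) is the remaining one and belongs to a B cell marker, complement receptor 2. Its folds were 8.75, 9.82 and 7.75 in spleen low, with no axillary low peak, but all 3 axillary high libraries had one, at 6.30, 7.02 and 6.42. Other regions of the B cell list were also found in more spleen than axillary low libraries, with no test. Of its 9 regions the spleen low libraries held 7, 7 and 3 and the axillary low libraries 2, 1 and 1. At equal list length the ranges were 3 to 6 and 1 to 2 regions, with summed folds of 21.1 to 50.2 and 6.49 to 14.3. In high cells the ranges overlapped, at 3 to 7 in spleen and 3 to 4 in axillary nodes as deposited and at 2 to 5 and 3 to 4 at equal length. Of the 16 genes of the list 7 had a region in at least 1 low library. Ebf1, Blnk, Spib and Cd180 had one in 1 or 2 spleen low libraries and no axillary low library, and Cd72 and Bank1 in both organs. The defining genes Cd79a, Cd79b, Ms4a1, Pax5 and Cd22 had none in any of the 6 libraries. Over all regions, the spleen low libraries held 17701, 17291 and 14408 and the axillary low libraries 14947, 14268 and 14310. Whether a few B cells in the sorted cells contribute to the spleen-only regions was not tested.

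Of the 12 strongest axillary-only regions 1 lay over a promoter window. A region inside Sema7a (chr9:57956729-57957331), which encodes a membrane semaphorin of activated T cells, had folds of 8.18, 8.61 and 6.56 in the axillary low libraries. It had no spleen low peak, yet 2 of 3 spleen high libraries and none of the axillary high libraries had one, so that the direction did not carry over. A region inside Foxp1 (chr6:99428881-99429366), a forkhead factor that keeps naive T cells quiescent, had folds of 6.87, 6.29 and 5.91. In high cells it was present in 1 spleen library and no axillary one.

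A region 48729 bp from Myc (chr15:62038905-62039276), the growth regulator, had folds of 6.66, 8.40 and 4.83 in axillary low, and 1 library of each organ had it among high cells. A region inside Srgn, the proteoglycan core protein of lymphocyte granules, had lower folds of 4.67, 5.92 and 6.20, and 3 of 3 axillary and 2 of 3 spleen high libraries had it. That promoter region, at Znhit2, had folds of 6.89, 7.60 and 5.21 and was present in 3 of 3 spleen high libraries. The remaining 7 regions lay at Ankrd11, Dhx40, Rassf3, Rapgef1, Tspan14, Parp11 and Zfp629. None of the 12 was axillary only among the high libraries.

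**Figure D3:**
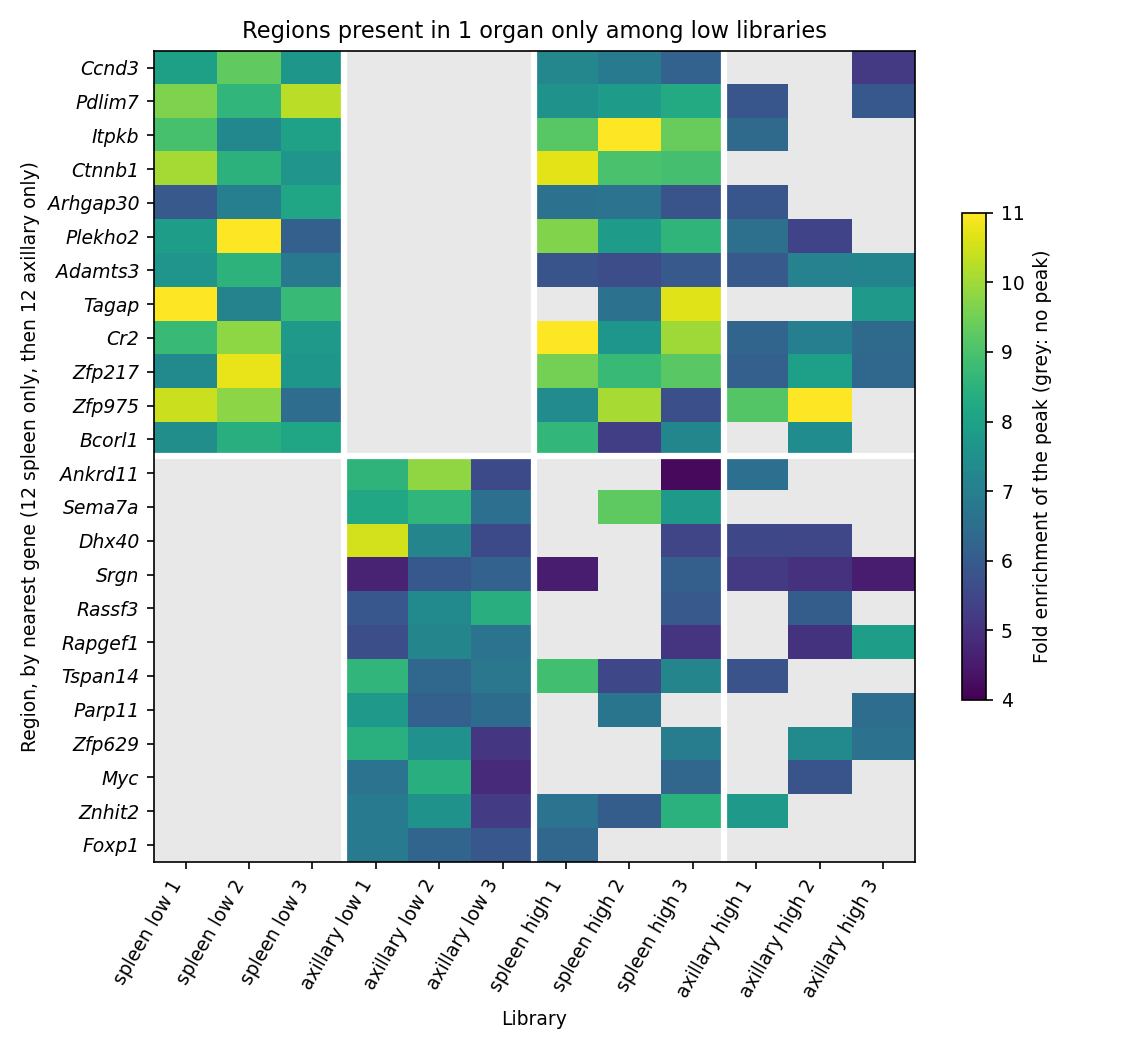
Fold enrichment (colour, grey where a library has no peak) of the 12 strongest regions in spleen only and the 12 strongest in axillary nodes only among low libraries, in 6 low and 6 high libraries. The low columns are full or empty by selection, and in the high columns only the Ctnnb1 row is full in spleen and empty in axillary nodes.

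High reporter cells, which are separate libraries, showed how far these regions carry over. Their narrowest peaks also differ by organ, at 167, 170 and 161 bp in spleen and 226, 176 and 236 bp in axillary nodes. Depth was 13.2, 14.0 and 14.0 reads per 10 kb in spleen high and 9.60, 10.2 and 9.85 in axillary high libraries. Carry-over can thus not be told apart from these measures. At equal length the 134 spleen-only regions included 78 to 96 with a peak in a spleen high library and 47 to 56 with one in an axillary high library. The 116 axillary-only regions included 54 to 65 with a peak in an axillary high and 41 to 44 with one in a spleen high library. At equal length each class was thus more frequent in high cells of its own organ, in ranges that do not overlap, although many regions were also present in the other organ. In the lists as deposited this held for the spleen-only regions, with 106 to 110 of the 134 in spleen high and 54 to 66 in axillary high libraries. It did not hold for the axillary-only regions, with 58 to 79 of the 116 in axillary high and 63 to 68 in spleen high libraries. Mesenteric low and high libraries held 64 to 80 and 63 to 68 of the 134, and 41 to 52 and 49 to 53 of the 116, at equal length. As deposited, where the mesenteric high lists are the longest of the series, those libraries held 111 to 121 and 102 to 105, more than the high cells of the same organ as the class.

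**Figure D4:**
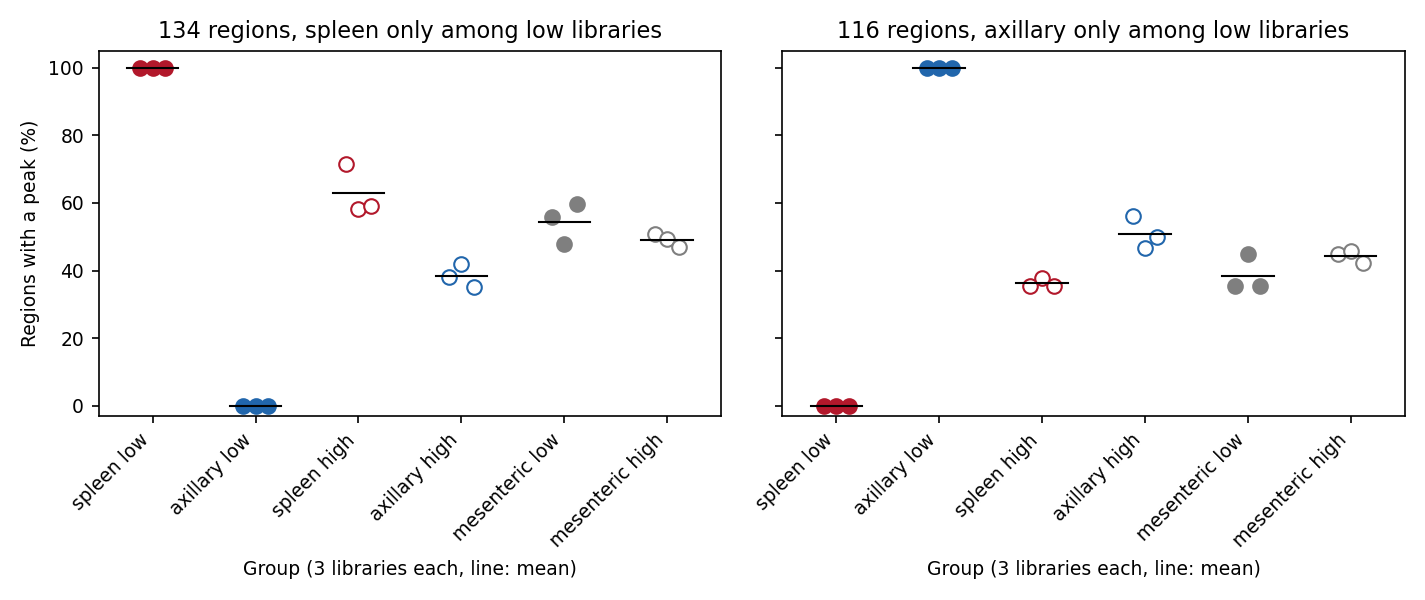
Share of the 134 spleen-only (left) and 116 axillary-only (right) regions that have a peak in each library, with 3 points and their mean per group, at equal list length. The low spleen and axillary points are 100% or 0% by selection, and mean shares in high cells are 62.9% in spleen against 38.3% in axillary nodes on the left, and 36.2% against 50.9% on the right.

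Among high libraries 409 regions (1.64%) were spleen only and 76 (0.306%) axillary only as deposited, and 202 (0.914%) and 160 (0.724%) at equal length. Few regions met the condition at both levels: 34 were present in 6 of 6 spleen and 0 of 6 axillary libraries as deposited and 2 the reverse, or 16 and 3 at equal length. Of the equal-length regions, 1 spleen-only region was axillary only in high cells and no axillary-only region was spleen only there. The spleen regions with the strongest peaks at both levels included those at Ctnnb1, Cd69, Kctd8, Prkag2, Rad51b, Med13l and Irf2bpl, and the 2 axillary ones at Asap1 and Pdhx.

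The region near Cd69 (chr6:129232899-129233159) is the one of these in a list of T cell activation and tissue retention. CD69 is an early activation antigen that holds T cells in an organ by removing the egress receptor S1PR1 from the surface. The region lies 34295 bp from the nearest gene end, outside genes. Its folds were 5.11, 5.50 and 4.92 in spleen low and 5.58, 5.85 and 5.59 in spleen high, narrow ranges with no peak in 6 axillary libraries. Mesenteric cells had it in 1 of 3 low and 0 of 3 high libraries.

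At Rad51b, a recombination gene, the promoter region (chr12:79297128-79297593) had folds of 7.38, 6.76 and 7.53 in spleen low and no axillary peak at either level, but 1 spleen high peak was lost at equal length. On the axillary side the region inside Asap1 (chr15:64163427-64163860), an ARF GTPase-activating protein of cell migration, had 7.68, 5.83 and 5.74 in low and 7.90, 5.18 and 6.11 in high cells. The region near Pdhx, a subunit of pyruvate dehydrogenase, had 5.50, 5.19 and 6.07 in low cells.

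Gene lists described the organ-only regions by role, with 16 pathway lists and a region assigned to the nearest protein-coding gene within 100000 bp. In the cell cycle list 3 of 65 regions were spleen only and 0 axillary only as deposited, and all 3 stayed so at equal length, beside 1.24% and 0.198% of all regions as deposited and 0.637% and 0.551% at equal length. They were those of Ccnd3, Cdk6 and Cenpe, which encode a cyclin, its kinase partner and a kinetochore motor. The Cdk6 region had folds of 9.09, 7.95 and 8.10 in spleen low, with peaks in 2 of 3 axillary high libraries. The Cenpe region had 6.43, 7.08 and 6.49 in spleen low and 11.2, 10.9 and 10.2 in spleen high, and no axillary peak at either level. It lies 20502 bp from the nearest end of Cenpe and no mesenteric library had it.

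Lists of TCR signalling held few such regions. Over all regions 1.24% were spleen only and 0.198% axillary only as deposited. The activation list had 1 of 132 regions in spleen only as deposited, that of Cd69, and 0 in axillary nodes only. The list of negative regulators had 2 of 109 in spleen only, inside Pag1 and at Dok1, and 1 in axillary nodes only, near Cd6. At equal length the activation list had 1 of 121 regions in spleen only and 1 in axillary nodes only. The negative regulators then had 1 of 103 and 3 of 103, beside 0.637% and 0.551% of all regions. Pag1, an adaptor that recruits the inhibitory kinase CSK, had folds of 8.44, 7.22 and 7.41 at its spleen-only region. At Cd6, a receptor that tunes TCR signals, the axillary folds were 5.46, 6.03 and 5.61. High cells had these 2 regions in 2 libraries of each organ.

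Transcription factor lists gave a mixed picture at single genes. A region 41717 bp from Ets1, a factor needed for naive T cell survival, was spleen only with folds of 7.04, 6.31 and 7.16. At other Ets1 regions the axillary folds were the higher ones, as described below. A region near Tcf12, an E protein, was spleen only with folds of 7.47, 8.51 and 6.05. An axillary-only region inside Zbtb20, with Tigit as the nearest gene end at 52024 bp, had folds of 6.88, 5.78 and 6.20. The list of RUNX, ETS, Ikaros and TCF factors had 3 of 126 regions in spleen only and 0 in axillary nodes only, against 1.24% and 0.198% over all regions.

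Some list regions changed class with list length. A region 3339 bp from Nr4a1 itself, one inside Cblb and one inside Lef1 were axillary only at equal length. So were those at Rela, near Pag1 and near Eomes. Each had a peak in 1 or 2 deposited spleen lists. At equal length 0.551% of all 21043 regions were axillary only and 0.637% spleen only. Axillary-only counts were 1 of 121 in the activation list, 3 of 103 in negative regulators and 2 of 115 in naive state genes. They were 1 of 87 in the list that holds Rela and 1 of 28 in T helper genes. Spleen-only counts in these lists were 1, 1, 2, 0 and 0. At Lef1, a TCF family factor of naive T cells, the folds were 5.96 and 5.27 in 2 spleen libraries and 7.225, 6.995 and 8.09 in the axillary libraries. In the other direction a region near Zbtb7b, the factor that sets the CD4 lineage, was spleen only at equal length, with folds of 6.24, 8.07 and 4.56 in spleen and 4.79 in 1 axillary library as deposited. The Hspa1a region, near an inducible heat shock gene, was axillary only in both lists, with folds of 7.14, 5.44 and 5.73. Among high cells it was present in 1 of 3 axillary and 0 of 3 spleen libraries. The interferon, Notch and housekeeping lists, of 33, 49 and 29 regions, had 0 regions in 1 organ only in either direction. Over all regions 1.24% were spleen only and 0.198% axillary only as deposited, so 0 in lists of this size is near those shares.

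Peak height was compared at the 9921 regions with a peak in all 6 libraries, as the log2 of the fold of the strongest peak, centred on the median of its library. No region passed limma with Benjamini-Hochberg adjustment at 0.05 (0 of 9921, 0%; smallest adjusted p = 0.573). At an unadjusted p under 0.05 there were 353 regions higher in axillary nodes (3.56%) and 332 higher in spleen (3.35%), or 6.9% in either direction. The groups did not overlap in 653 regions higher in axillary nodes (6.58%) and 550 higher in spleen (5.54%). The median standard error was 0.15, so the 95% interval of a typical region reached 0.32 to either side on the log2 scale. In 99.2% of regions the difference in log2 fold was under 0.5, none exceeded 1, and the extremes were 0.80 and -0.68. The fold holds a pseudocount in both its terms, which narrows differences where background is low. As recovered summit reads over genome background, the regions at Fyb, Zfp300 and Eif4b differed by 1.29, 1.09 and -0.97. On that scale 0 of 9675 regions passed (limma smallest adjusted p = 0.347).

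Without centring the split of unadjusted regions was 124 higher in axillary nodes and 819 higher in spleen, around a median difference of -0.09. Median folds over these regions were 10.1, 9.97 and 9.23 in the spleen libraries and 9.314, 9.004 and 9.163 in the axillary ones, with spleen 3 again inside the axillary range. Directions below are therefore relative to the library median. For −log10 p, centred in the same way, no region passed either (0 of 9921, 0%; limma smallest adjusted p = 0.331), with 765 at an unadjusted p under 0.05 (7.71%).

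**Figure D5:**
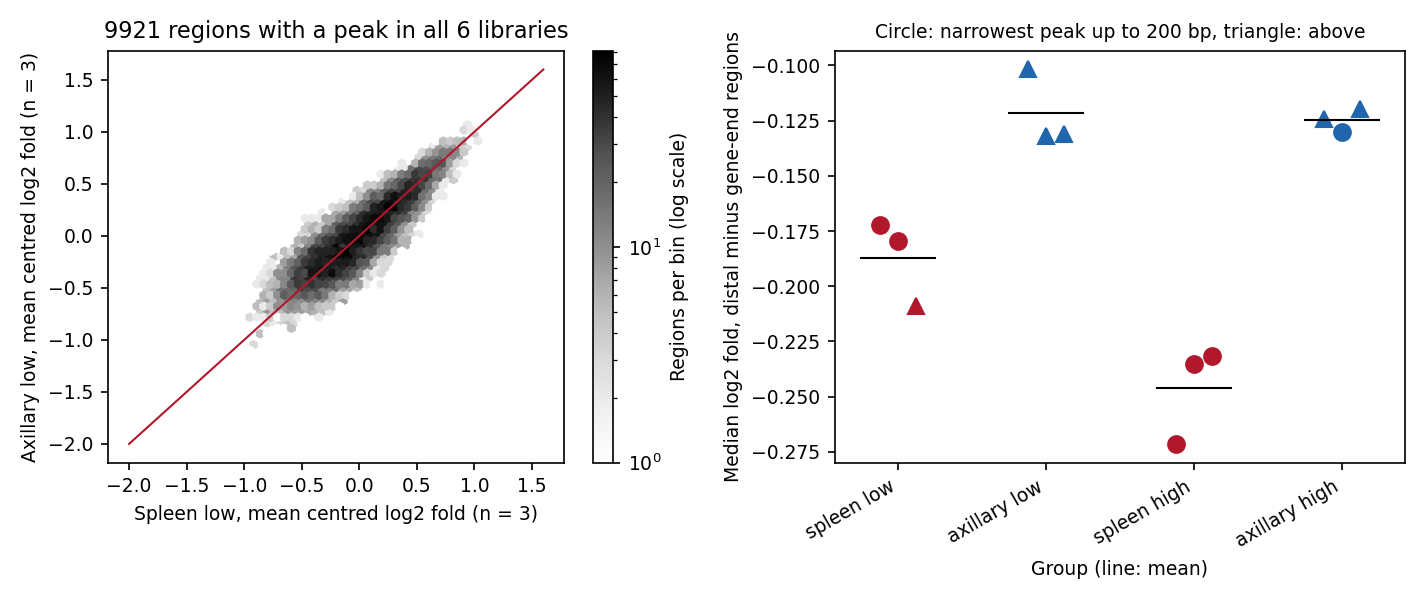
Left, mean centred log2 fold of 9921 regions in 3 axillary against 3 spleen low libraries, shaded by regions per bin on a log scale, with the line of equality. Right, median log2 fold of distal minus gene-end regions in each spleen and axillary library over regions of all 18 libraries, with group means, in which all spleen points (-0.17 or lower) lie under all axillary points.

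The regions with the smallest p were chosen after their values were seen, and none passed the adjusted threshold. The smallest was at the promoter of Slc25a5, which encodes an ADP/ATP carrier of mitochondria. Its folds were 11.5, 12.2 and 10.5 in spleen and 6.67, 6.15 and 7.16 in axillary nodes, a centred difference of -0.68 ± 0.13 (SE; limma adjusted p = 0.573). The groups do not overlap in low cells, but in high cells the difference was 0.10 in the opposite direction (unadjusted p of the interaction 0.00185). At the promoter of Eif4b, a translation initiation factor, the folds were 13.3, 9.93 and 10.5 in spleen and 8.18, 5.70 and 6.07 in axillary nodes. There the high libraries had a difference of -0.76, on the same side as -0.67 in low cells. Others higher in spleen were at Tiam2, Skor1 and 1700025G04Rik.

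In the axillary direction the Gpr18 promoter, printed above with its RUNX core, had folds of 6.87, 6.99 and 6.61 in spleen and 10.6, 10.3 and 9.01 in axillary nodes. GPR18 is a G protein-coupled receptor of lymphocytes. The difference was 0.63 ± 0.14 (SE; limma adjusted p = 0.573) in low and 0.21 in high cells. Inside Fyb, whose product ADAP links the TCR to integrins, the folds were 4.96, 7.42 and 5.24 in spleen and 11.6, 9.23 and 7.76 in axillary nodes (0.79 ± 0.18). A region far from genes near Fut8, a fucosyltransferase, had 5.91, 5.61 and 6.32 in spleen and 10.3, 7.83 and 9.18 in axillary nodes, with 0.70 in low and 0.60 in high cells. The other 3 were at Zfp300, Crbn and Tcof1.

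The homing list, of receptors that steer T cells between blood and organs, had 5 of 34 tested regions higher in axillary nodes and 1 higher in spleen at an unadjusted p under 0.05, against 3.56% and 3.35% of all regions, and 0 of 34 passed the adjusted threshold. Its median difference was 0.03, beside 0.004 over all regions. A region 19702 bp from Cxcr4, the receptor for CXCL12, had folds of 6.90, 5.42 and 7.60 in spleen and 12.1, 10.9 and 7.68 in axillary nodes. The difference was 0.70 ± 0.19 (SE; limma adjusted p = 0.583) and 0.47 in high cells. A further Cxcr4 region, 22686 bp away, overlapped between groups at 6.72, 8.26 and 5.20 against 8.57, 7.29 and 8.15.

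Ccr7, the receptor that guides naive T cells into lymph nodes, had 2 such regions. At 15922 bp the folds were 7.45, 8.24 and 11.4 in spleen and 11.8, 11.4 and 10.6 in axillary nodes, groups that overlap through spleen 3. At 8170 bp they were 8.79, 8.56 and 7.85 against 13.4, 9.57 and 8.68. The differences were 0.43 and 0.39 in low cells and 0.52 and 0.26 in high cells. A region 14331 bp from S1pr1, the egress receptor, had the other sign, with 10.2, 9.34 and 10.5 in spleen and 9.22, 7.17 and 5.56 in axillary nodes (-0.39, limma adjusted p = 0.70).

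In the TCR activation list 5 of 49 tested regions were higher in axillary nodes and 1 in spleen at an unadjusted p under 0.05, beside 3.56% and 3.35% of all tested regions, and 0 passed the adjusted threshold. Those higher in axillary nodes lay at Egr2, Nr4a3, Nr4a1, Tnfrsf9 and Tnfrsf18, targets and receptors that TCR signals induce. At Egr2 the folds were 7.42, 8.43 and 9.20 in spleen and 10.5, 10.7 and 10.8 in axillary nodes, with 0.45 ± 0.15 in low and 0.32 in high cells. At Nr4a3 they were 9.33, 9.74 and 9.65 against 12.3, 15.2 and 10.3, with 0.47 in low and -0.27 in high cells. The median difference over the list was -0.002, beside 0.004 over all regions.

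Nr4a1, the reporter gene, had 4 regions in all 6 libraries and a higher mean fold in axillary nodes at each. At the region with its promoter window (chr15:101266306-101268384) the folds were 8.129, 8.0 and 8.065 in spleen and 9.34, 9.84 and 9.58 in axillary nodes. The difference was 0.34 ± 0.13 (SE; limma adjusted p = 0.67) and 0.20 in high cells. At the strongest region, 7277 bp from the gene (chr15:101246073-101247178), they were 10.6, 10.4 and 10.7 against 12.051, 11.9 and 12.045, with 0.27 in low and 0.14 in high cells (limma adjusted p = 0.723). The groups do not overlap at either region. The 2 inner regions had 0.27 and 0.25. At the first of them the groups overlap, with 5.36, 6.09 and 5.29 in spleen against 5.75, 6.52 and 6.76 in axillary nodes. At the second they do not. As recovered summit reads over genome background, the promoter and strongest regions both differed by 0.29. On that scale the inner regions differed by 0.15 and 0.02. None of the 4 passed the adjusted threshold.

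Local background differs at this gene from that of other peaks. The reads around the 4 regions stood at 64.6, 72.1 and 82.1 times the genome background in spleen and 68.4, 69.9 and 76.2 times in axillary nodes, while the median over all peaks was 3.53 to 4.60 times. The axillary values lie inside the spleen range. Of 2 weaker regions, the one 3339 bp away had a peak in 1 spleen library, at 2.24, and in 3 axillary libraries, at 2.56, 2.77 and 2.70. All 6 high libraries had that region.

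In other lists, counts at an unadjusted p under 0.05 are to be read beside 3.56% of all tested regions higher in axillary nodes and 3.35% higher in spleen. In the retinoic acid and TGF-beta list 3 of 21 tested regions were higher in spleen and 0 in axillary nodes at an unadjusted p under 0.05, and 0 passed the adjusted threshold. They lay at Ski and Smurf2, inhibitors of SMAD signals, and inside Smad7, an inhibitory SMAD. At Ski the folds were 14.0, 11.6 and 11.5 in spleen and 7.88, 8.32 and 8.51 in axillary nodes (-0.49 ± 0.14 in low, -0.33 in high cells). At Smurf2 they were 9.41, 9.15 and 9.34 against 6.68, 6.96 and 6.73, with -0.36 in low and -0.61 in high cells. The cytokine list had 0 of 25 higher in axillary nodes and 2 higher in spleen, a region at the gene end of Il6st, with 9.62, 9.59 and 9.36 against 6.21, 6.80 and 6.55, and one near Jak1.

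Against the same shares of all tested regions, 3.56% and 3.35%, the interferon list had 2 of 11 regions higher in axillary nodes, at Oas3 and Usp18, and 0 in spleen. At Oas3, an antiviral oligoadenylate synthetase, the folds were 7.88, 7.82 and 7.25 in spleen and 9.80, 9.94 and 11.7 in axillary nodes, with 0.54 ± 0.14 in low and 0.25 in high cells. The list of naive state genes had 4 of 47 higher in axillary nodes, 2 of them at Ets1 and 2 at Ccr7, and 1 in spleen. Inside Ets1 the folds were 4.49, 5.12 and 4.99 in spleen and 5.81, 7.34 and 6.40 in axillary nodes (0.51 ± 0.15). The cell cycle and housekeeping lists had 0 of 29 and 0 of 18 in either direction, with medians of -0.03 and -0.08.

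Direction depended on distance from genes, a split examined after the values were seen. Over all 9921 tested regions 3.56% were higher in axillary nodes and 3.35% higher in spleen at an unadjusted p under 0.05. Of the 5982 regions within 1000 bp of a gene end 123 and 224 were so, with a median difference of -0.01. Of the 2109 regions at 10 to 100 kb 134 and 59 were so, with a median of 0.05. As a value per library over the regions of all 6, the median log2 fold of these distal regions minus that of gene-end regions was -0.249, -0.229 and -0.253 in spleen and -0.166, -0.188 and -0.191 in axillary nodes. The groups do not overlap and differ by 0.06 (exact permutation p = 0.1, the smallest the design allows).

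Over regions of all 18 libraries this difference was 0.07 in low and 0.12 in high cells, and again the groups did not overlap (exact permutation p = 0.1 in each). Fragment estimates differ within 2 of these groups. Spleen low 3, at 233 bp, had -0.209 beside -0.172 and -0.18 in the other spleen low libraries, at 169 and 170 bp. Axillary high 2, at 176 bp, had -0.13 beside -0.124 and -0.12 in its group, at 226 and 236 bp. The local background was also higher in axillary nodes, at 4.41, 4.33 and 4.60 times the genome background against 4.15, 4.20 and 4.27 at equal length. The part of fragment estimate and background in the difference was not tested.

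The organ difference in low cells was set against that in high cells by an interaction term over 12 libraries. None of 8910 regions passed limma (0%, smallest adjusted p = 0.689), and 479 (5.38%) had an unadjusted p under 0.05. The sign of the difference was the same in low and high cells in 59.1% of the regions. It was the same in 207 of the 291 regions (71.1%) that were higher in axillary nodes at an unadjusted p under 0.05 in low cells, and in 212 of 291 (72.9%) that were higher in spleen. Median differences in those regions were 0.39 and -0.40 in low cells, where they were chosen, and 0.11 and -0.12 in the separate high libraries.

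The labelled cell type was checked against its markers. Of 14 naive CD4 T cell genes all had a region, and Cd3d, Cd4, Cd28, Lck, Tcf7 and Lef1 had a peak in each of the 6 libraries. Lists of other cell types were covered unevenly, with a region at 5 of 7 CD8 T cell, 6 of 11 natural killer and 6 of 12 dendritic genes. It was 4 of 16 for myeloid genes, mostly Cebpb, which held 7, 6 and 2 regions in spleen and 4, 2 and 3 in axillary nodes, and no region at Lyz2, Csf1r or Cd14. Of 15 myeloid regions the spleen libraries held 10, 9 and 3 and the axillary libraries 5, 3 and 3, and at equal length 2 to 5 and 3 to 5. Regions of the CD8 T cell list numbered 6 to 10 in spleen and 6 to 7 in axillary nodes, those of the natural killer list 7 to 9 and 7 to 8, and those of the dendritic list 8 to 13 and 8 to 9. The erythroid list had 3 to 4 in each organ and the stromal list 5 to 6 and 4 to 5, so these ranges overlap. Their part in the organ-only regions was not tested.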

How the data were processed

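Peak lists of 18 ATAC-seq libraries were used, and the 6 of low reporter cells from spleen and axillary nodes were compared. The submitters' processing notes name Bowtie2, MACS, bedtools and Trimmomatic 0.33, and the build mm10, but no caller settings, read shift or treatment of duplicates. Each deposited peak has a position, a score, a fold, a −log10 p-value and a −log10 q-value, which are the authors' own. The fold is the ratio of summit reads to local background, with a pseudocount in each. Peaks were called per sample, since each library has its own list, and the smallest deposited −log10 p was 5.001.

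Peaks of all libraries on chromosomes 1 to 19 and X (314425, with 404 on other sequences set aside) were merged into 33112 regions, and a library had a region when a peak overlapped it by 1 bp. Lists of equal length kept the 14372 peaks with the highest −log10 p (14778 among high libraries). Whole summit reads and backgrounds matching fold and −log10 p within 0.002 were found for 99.3% of peaks. The lowest background gave the depth. Thinning to equal depth used 20 binomial draws for peak numbers and the first draw for presence. Depth limits which weak peaks are seen, and intervals cover the spread between libraries only.

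Strongest peaks per region were compared with limma 3.58.1 in R 4.3.3, after tests on simulated data. Settings were lmFit and eBayes, log2 values, median centring, no further pseudocount and Benjamini-Hochberg at 0.05. Values per library were compared by exact two-sided permutation tests. Presence had no test. Groups came from the titles. Regions are named by the nearest end of 21631 protein-coding RefSeq genes (GRCm38.p6), which says nothing of regulation. Named were the 12 strongest organ-only regions per direction that kept their class in both lists, up to 8 at both reporter levels, list regions of that class, and all regions of Nr4a1. Since no fold passed, the 6 smallest p per direction and list regions at an unadjusted p under 0.05 were named instead. These, the printed promoters, the motifs, the split by distance and the long-fragment alternative were chosen after values were seen. Some regions that meet these rules are not reported here. The members and lists were chosen with earlier results of these data known. Of 454 list genes 453 were in the annotation. Alternatives covered list length, depth, threshold, overlap, merging, centring, scaling, replicate block and each library left out.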

Additional observations from a re-analysis of the deposited data

Results flagged for a closer look

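Outside the chromosomes used, each of the 6 low libraries had peaks on the mitochondrial sequence, 6 in the lowest and 7 in the highest. These peaks were in no comparison, and the counts hardly differed between organs. No group held enough libraries for a check of outlying samples, and no region had an interaction that passed the adjusted threshold.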

How the results depend on the processing

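The 289 spleen-only and 46 axillary-only regions became 134 and 116 with lists of equal length, and 164 and 103 with reads thinned. They became 1185 and 682 with the 4 long-fragment libraries alone, an alternative chosen after seeing the data that asks for 1 spleen library but 3 axillary ones. Leaving out 1 library gave 458 to 844 and 80 to 151, which by construction asks for fewer libraries, and the highest spleen count came without spleen low 3. A −log10 p of at least 10 gave 212 and 36, merging over the 6 libraries 290 and 47, and the stricter overlap with the strongest peak 255 and 45. The difference in peak number turned to 118.7 with the long-fragment libraries alone (1 spleen library against 3, with no test) and ran from -3153.3 to -1406.3 without 1 library, the first value being without spleen low 3.

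No fold difference passed under any alternative run, with limma smallest adjusted p of 0.347 to 0.904. The −log10 p comparison gave 0 to 1 calls when 1 library was left out. The 1 call was the Fyb region without axillary low 3 (limma adjusted p = 0.043, against 0.331 with all 6). Whether replicate numbers pair the libraries is not known. Deviations from the organ means correlated at 0.025, 0.004 and 0.011 between libraries of the same number. With 3 libraries per organ these values cannot show whether libraries share animals. With a replicate block the fold had 0 calls and 703 regions at an unadjusted p under 0.05. The −log10 p then had 0 calls (limma smallest adjusted p = 0.0738) and the interaction 0 calls. Of 42 named presence results 0 reversed, and 42 kept their class at equal length, a condition that most of them had to meet to be named. The class was kept by 38 at equal depth and by 20 at a −log10 p of at least 10. Fragment estimate moves with the organ in 5 of 6 libraries and cannot be told apart from it there. Depth moves with the organ in all 6, by little in spleen low 3 (9.84 against 9.53 reads per 10 kb in axillary low 1), and cannot be told apart from it. In the high libraries fragment estimate and depth both differ by organ without overlap, and cannot be told apart from it either.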
